A study of Canis lupus with 23 samples.

Results

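The material described here is 1 canine nasal tumor and the 3 canine transitional cell carcinomas (TCC) of the bladder, 4 of the 23 tumors of the series, set side by side as epithelial tumors of different organs. The members were taken by their sample labels (Nasal Tumor, and TCC 0, TCC 1 and TCC 2), and all 15115 genes that could be named were described, with no filter on low values. The nasal label gives no histology, and the study calls the tumor a nasal carcinoma. Because the nasal type has 1 tumor, no difference could be tested, and each gene is given by whether the nasal tumor lay beyond the range of the 3 TCC and by how much.

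The series profiled biopsies of client-owned pet dogs with naturally occurring cancer, taken before any chemotherapy, radiation or immunotherapy, to find out whether array profiling could be returned within a clinical window. The methods excluded earlier nonsteroidal anti-inflammatory drugs only for TCC and corticosteroids only for lymphoma. Neither is therefore excluded for the nasal dog, and corticosteroids are not excluded for the TCC dogs. Every biopsy had passed the study's histology and RNA integrity criteria. The nasal tumor came from a cohort open to any cancer type and breed. The labels give no breed or cohort for any of the 4 dogs, so both are taken from the study's description of its cohorts. The TCC cohort was restricted to Scottish terriers that had not received nonsteroidal anti-inflammatory drugs, and its biopsies were collected by cystoscope or under ultrasound guidance. Organ, breed and biopsy route therefore cannot be told apart in this comparison. The other 19 tumors (7 lymphomas, 5 melanomas, 2 labelled STS, 2 sarcomas, and 1 each of histiocytic sarcoma, hemangiosarcoma and hepatocellular carcinoma) were used only to show where a nasal value stood in the whole series.

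The lining of the nasal cavity is a respiratory mucosa of ciliated, secretory and basal cells over serous and mucous glands. Its secretions carry mucins, lysozyme, lactoferrin, secretoglobins and protease inhibitors, and an olfactory mucosa lies farther back. The bladder is lined by urothelium, whose surface cells carry plaques of uroplakins and whose identity in mice and humans depends on factors such as PPARG and GATA3. In bulk tissue, fewer cells of a type and less RNA per cell cannot be told apart.

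Levels are given as log2(signal + 16) of the array signal, averaged over the probesets of a gene, so 1 unit is a doubling of signal + 16 and the scale has a floor of 4. TCC values always stand in the order TCC 0, TCC 1 and TCC 2, and distances are in log2 units from the nearest TCC. The nasal array was somewhat brighter than the TCC arrays and inside the range of the other 19. Its median signal was 107, against 81.9 to 102 in the TCC, with other tumors between 85.3 and 132, and 21.5% of its probesets had a signal below 16, against 21.6% to 23.2% in the TCC. Control probesets read 3.53 log2 units higher at the 3' than at the 5' end in the nasal tumor, inside the 3.23 to 3.84 of the TCC. The median gene stood at 7.09 in the nasal tumor and at 6.79 to 7.05 in the TCC.

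The nasal tumor lay above the highest TCC for 5142 genes, 34% of all genes, and below the lowest TCC for 4308, or 28.5%. The remaining 5665 genes lay inside the TCC range. The balance between the directions moved with the scaling: with each array centred on its median gene, 4220 genes lay above and 5414 below, and with quantile normalization 4680 above and 4730 below. The range among the 3 TCC had a median width of 0.76 over all genes, and their SD a median of 0.40, so many of these differences were small. A distance of at least 2 log2 units, a 4-fold difference in signal + 16 from the nearest TCC, was therefore used to call a gene. It was met by 277 genes above the TCC (1.83%) and 222 below (1.47%), against 240 above and 253 below with each array centred on its median gene. At that edge, HPN was 2.003 above the highest TCC and just inside the call, while MAB21L3 at 1.996 was just outside. On the other side SPARCL1 was just inside at -2.001 and KLF7 just outside at -1.97.

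**Figure D1:**
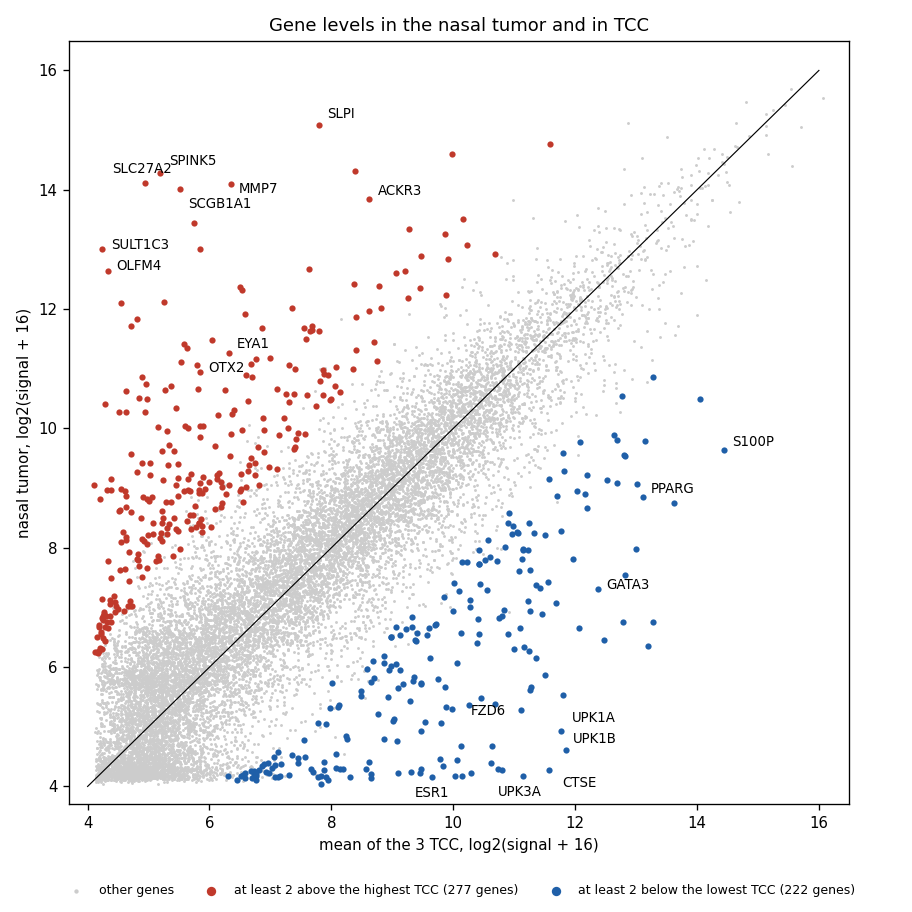
Level of each of the 15115 genes in the nasal tumor (vertical axis) against the mean of the 3 TCC (horizontal axis), both as log2(signal + 16); the line marks equal levels. Red points are the 277 genes at least 2 log2 units above the highest TCC and blue points the 222 genes at least 2 below the lowest TCC. Labelled genes include airway and secretory genes at the upper left and urothelial genes at the lower right. Genes of other groups are labelled on both sides, such as OTX2 and ACKR3 above and FZD6 and CTSE below.

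The 2 sets of called genes differed in where the other tumors stood. Of the 277 genes above the TCC, the nasal tumor had the highest level of all 23 tumors for 126, and for 33 it was at least 2 units above all other 22. For 191 of them every TCC lay below the median of all gene values, 7.03. Of the 222 genes below the TCC, the nasal tumor lay within the range of the other 19 tumors for 162 and was the lowest of all 23 for 53. For 92 of the 222, every TCC stood above all other 19 tumors. A distance of at least 4 units was seen for 53 genes above and 45 below, and one of at least 6 for 11 above and 5 below.

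Across all genes, the nasal tumor correlated with the TCC at r = 0.854 to 0.863, whereas the TCC correlated with each other at 0.930 to 0.935. TCC 2 was the tumor closest to the nasal tumor, but melanoma 1, at 0.857, lay between TCC 2 and TCC 1. The lowest value was that of the hepatocellular carcinoma, at 0.725. The values are over genes, not over independent replicates, and all arrays share 1 platform and 1 scaling.

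The label was checked against markers first. Genes of epithelial identity and adhesion placed the nasal tumor nearest to the TCC. Their mean level over 25 genes on the array was 8.98 in the nasal tumor and 9.95, 9.58 and 9.96 in the TCC. The other 19 tumors reached at most 7.30, in the hepatocellular carcinoma. EPCAM, an epithelial adhesion molecule, stood at 13.08 in the nasal tumor and 13.76, 14.27 and 13.58 in the TCC. KRT18, a keratin of simple epithelia, lay inside the TCC range at 13.15 in the nasal tumor and 12.87, 13.90 and 13.27 in the TCC, and its partner KRT8 differed from the highest TCC only beyond the second decimal, at 13.09 in the nasal tumor and 12.18, 13.09 and 12.63 in the TCC. Most members were nevertheless lower in the nasal tumor: 14 of 25 (56%, beside 28.5% of all genes) lay below the lowest TCC and 5 above the highest, with a median difference of -0.62, against 0.05 over all genes.

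The 2 called members of this list, both below (8%, beside 1.47% of all genes), were MUC1 and ESRP2. MUC1, a membrane mucin, was at 7.07 in the nasal tumor, against 12.02, 11.17 and 11.89 in the TCC. ESRP2, an epithelial splicing regulator, was at 6.18 in the nasal tumor, against 8.74, 8.38 and 9.47 in the TCC. For MUC1 the nasal tumor still ranked 4 of 23, behind the TCC. CDH1, which encodes E-cadherin, was 1.41 below the lowest TCC at 10.42 in the nasal tumor and 13.02, 11.83 and 13.14 in the TCC. For CDH1 the nasal tumor ranked 5 of 23, and a tumor of another type reached 10.54. KRT8, PRSS8, LSR and SPINT2, which lay above the TCC, had their highest level of all 23 tumors in the nasal tumor. The 2 probesets of SPINT2, a membrane protease inhibitor, disagreed, with 1 above and 1 below the TCC. Of the 2 probesets of PRSS8, 1 lay above the TCC and none below.

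Markers of other tissues that a nasal biopsy could hold were mostly low. Of 26 genes of olfactory neurons and neuroendocrine cells, 10 (38.5%) lay above the TCC range and 5 (19.2%) below. The shares over all genes were 34% and 28.5%. However, 18 of the 26 were below the median of all gene values in all 4 tumors. CHGA, the neuroendocrine marker chromogranin A, stood at 4.77 in the nasal tumor and 5.96, 5.76 and 5.68 in the TCC. INSM1 and GAP43 of the same list went the other way without reaching the call. INSM1 was at 6.32 in the nasal tumor, against 4.56, 4.91 and 4.62 in the TCC. GAP43 was at 8.02 in the nasal tumor, against 6.13, 5.74 and 5.37 in the TCC. For both, the nasal tumor ranked 3 of 23. The 3 members called above the TCC (11.5%, beside 1.83% of all genes) were STMN2, GNAL and ENO2, and none was called below. STMN2, a stathmin of growing neurons, was at 10.64 in the nasal tumor, against 5.78, 4.52 and 5.51 in the TCC. A tumor of another type reached 11.32 for STMN2. GNAL, the G protein of olfactory transduction, was at 10.24 in the nasal tumor, against 6.32, 6.59 and 6.21 in the TCC, although a tumor of another type reached 10.68. ENO2, neuron-specific enolase, was at 8.94 in the nasal tumor, against 6.75, 6.39 and 6.36 in the TCC. Tumors of other types had a median of 8.56 for ENO2 and reached 9.99, so the nasal level lay within their range.

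Of 27 bone and cartilage genes, 20 were low in all 4 tumors, among them IBSP, or bone sialoprotein, at 4.25 in the nasal tumor and 5.78, 4.44 and 4.32 in the TCC, and ACAN, or aggrecan, at 4.45 in the nasal tumor and 4.56, 5.70 and 5.58 in the TCC. Of the 27, 9 (33.3%) lay above the TCC range and 6 (22.2%) below, beside 34% and 28.5% of all genes. The 1 called above (3.7%, beside 1.83% of all genes) was ALPL, alkaline phosphatase. It was at 8.32 in the nasal tumor, against 6.25, 5.13 and 4.998 in the TCC. SPP1 lay 0.39 above the highest TCC, at 11.52 in the nasal tumor and 10.60, 7.05 and 11.13 in the TCC. The 1 called below was SOX6, a cartilage and neural factor, at 4.27 in the nasal tumor, against 8.52, 7.67 and 7.47 in the TCC. Among 15 melanocyte genes none was called in either direction. Of 22 liver genes 1 was called: TTR, which encodes transthyretin, at 10.62 in the nasal tumor, against 4.20, 4.14 and 5.54 in the TCC.

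**Figure D2:**
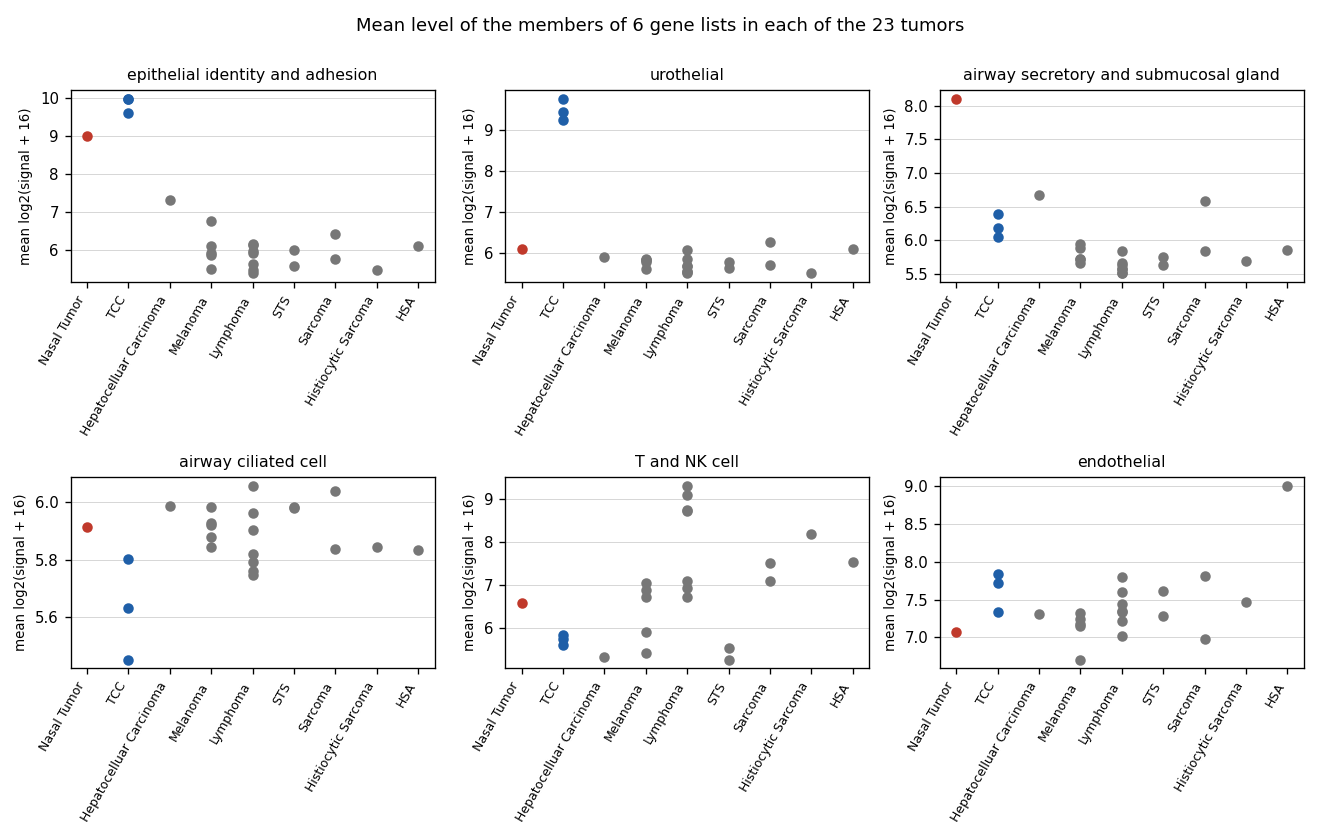
Mean log2(signal + 16) over the members of 6 gene lists in each of the 23 tumors, with the nasal tumor first (red), the 3 TCC next (blue) and the other types in grey; each panel has its own vertical scale, which does not start at 0. The nasal tumor stood beside the TCC for epithelial genes, with the other tumor types for urothelial genes (6.10, against 9.23 to 9.75 in the TCC) and above all others for airway secretory genes (8.10).

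Secretory products of the airway mucosa were among the genes farthest above the TCC. The mean level of 37 genes of airway secretory cells and submucosal glands was 8.10 in the nasal tumor, the highest of all 23, and 6.19, 6.05 and 6.39 in the TCC; the other 19 tumors reached at most 6.67. Of these genes 18 (48.6%) lay above the highest TCC and 4 (10.8%) below the lowest, beside 34% and 28.5% of all genes. Of the 37, 11 (29.7%) were called above, against 1.83% of all genes, and none below. The 11 include SLPI, which was named as a marker of the nasal tumor when this comparison was chosen. For 12 of the 37 the nasal tumor was the highest of all 23. The median difference was 0.90, and 18 of the 37 were low in all 4 tumors, so the list was not higher throughout.

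SCGB1A1, the secretoglobin of airway club cells, had a level of 14.005 in the nasal tumor, against 5.63, 5.27 and 5.66 in the TCC. SLPI, the secretory leukocyte protease inhibitor, was at 15.09 in the nasal tumor, against 6.04, 7.41 and 9.94 in the TCC, so the TCC themselves spread widely for this gene. LTF, the iron-binding antimicrobial protein lactoferrin, was at 12.32 in the nasal tumor, against 7.08, 5.81 and 6.72 in the TCC. For these 3 genes the nasal tumor was the highest of all 23, and all their probesets lay above the TCC. Tumors of other types reached 6.94 for SCGB1A1, 13.61 for SLPI and 9.55 for LTF.

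MUC16, a large membrane mucin of mucosal surfaces, was at 12.13 in the nasal tumor, against 5.09, 5.07 and 5.60 in the TCC, and its highest level among the other 19 tumors was 5.87. SPINK5, a serine protease inhibitor of stratified and mucosal epithelia, was at 14.28 in the nasal tumor, against 4.55, 4.60 and 6.43 in the TCC. For SPINK5 a tumor of another type came close, at 14.15. The calcium-regulated membrane protein CLCA2 was at 11.11 in the nasal tumor, against 4.10, 6.71 and 5.77 in the TCC.

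CYP2F1, a cytochrome P450 of respiratory epithelium, was at 9.42 in the nasal tumor, against 5.18, 4.72 and 5.15 in the TCC. AQP5, the water channel of serous gland cells, was at 11.17 in the nasal tumor, against 7.49, 5.47 and 7.996 in the TCC. Among smaller distances, DMBT1, a secreted scavenger glycoprotein, was at 8.21 in the nasal tumor, against 4.75, 4.73 and 5.49 in the TCC, and BPIFA1, an abundant protein of nasal secretions, was only 1.14 above the highest TCC at 6.86 in the nasal tumor and 4.76, 4.996 and 5.72 in the TCC. PIGR, the receptor that carries IgA across epithelia, went the other way at 10.25 in the nasal tumor, against 12.53, 12.18 and 11.83 in the TCC, although 6 of its 7 probesets, and not all, lay below the TCC.

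Of 25 mucosal antimicrobial and inflammatory genes, 10 (40%) lay above the TCC range and 6 (24%) below, beside 34% and 28.5% of all genes. Of the 25, 5 (20%) were called above, beside 1.83% of all genes, and none below. Besides LTF and the marker SLPI, both counted above as well, these were PI3, CCL28 and SAA1. PI3, the elastase inhibitor elafin, was at 11.84 in the nasal tumor, against 4.37, 5.70 and 4.38 in the TCC. Tumors of other types had a median of 7.39 for PI3 and reached 11.47. CCL28, a mucosal chemokine that attracts IgA plasma cells, was at 9.42 in the nasal tumor, against 5.07, 4.31 and 5.30 in the TCC. SAA1, an acute phase protein, was at 12.60 in the nasal tumor, against 9.48, 7.5 and 10.22 in the TCC, a level that tumors of other types exceeded, since the nasal tumor ranked 6 of 23. LYZF2, a lysozyme, was in none of the lists and lay 5.35 above the TCC at 11.35 in the nasal tumor and 5.46, 5.42 and 6.004 in the TCC.

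MMP7 and OLFM4 were named as marker genes of the nasal tumor together with SLPI when this comparison was chosen, so their levels are a description. MMP7, or matrilysin, a protease of glandular epithelium, was at 14.09 in the nasal tumor, against 6.60, 5.49 and 6.96 in the TCC. OLFM4, a secreted glycoprotein that marks stem cells of the human intestine, was at 12.64 in the nasal tumor, against 4.33, 4.26 and 4.41 in the TCC. The other 19 tumors reached at most 10.15 for MMP7 and 9.75 for OLFM4. Of 26 progenitor and stem cell genes in which OLFM4 was counted, it was the 1 (3.85%) called above. ALDH1A1, ITGA6 and TP63 (11.5%) were called below. Over all genes 1.83% were called above and 1.47% below. SOX9, a factor of gland and airway progenitors, was at 9.48 in the nasal tumor, against 6.83, 8.32 and 7.08 in the TCC, the highest of 23.

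Ciliated cell genes did not share the secretory pattern. Of 51 on the array, 22 (43.1%) lay above the TCC range and 8 (15.7%) below, beside 34% and 28.5% of all genes. None was called in either direction, and 40 were low in all 4 tumors. Their mean level was 5.91 in the nasal tumor, inside the 5.75 to 6.06 of the other 19 tumors, and 5.63, 5.45 and 5.80 in the TCC. DNAH5, an outer arm dynein of motile cilia, was at 5.95 in the nasal tumor, against 4.51, 4.20 and 4.20 in the TCC, and RSPH1, a radial spoke protein, was at 5.93 in the nasal tumor, against 4.61, 4.5 and 4.80 in the TCC. Both are low levels on this scale.

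The other genes farthest above the TCC included enzymes, adhesion molecules and guidance molecules. SLC27A2, a fatty acid transporter and acyl-CoA synthetase of liver and kidney, had the largest distance of all named genes, at 14.11 in the nasal tumor, against 5.23, 4.90 and 4.70 in the TCC, with 13.74 in the highest tumor of another type. SULT1C3, a sulfotransferase, was at 13.002 in the nasal tumor, against 4.29, 4.10 and 4.34 in the TCC, and no other tumor passed 5.82. CNTN6, a contactin known from neurons, was at 12.11 in the nasal tumor, against 4.69, 4.27 and 4.67 in the TCC. DCDC2, a doublecortin-domain protein of microtubules and cilia, was at 11.72 in the nasal tumor, against 4.31, 5.003 and 4.81 in the TCC.

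CLIC6, of the chloride intracellular channel family, was at 13.45 in the nasal tumor, against 4.93, 5.36 and 6.93 in the TCC, and VMO1, a secreted protein, at 13.01 in the nasal tumor, against 7.28, 4.46 and 5.76 in the TCC. SEMA3A, an axon guidance signal, was at 10.74 in the nasal tumor, against 5.09, 4.83 and 4.93 in the TCC. MGAM2, a relative of intestinal maltase-glucoamylase, was at 10.28 in the nasal tumor, against 4.18, 4.64 and 4.71 in the TCC. For CDO1, the cysteine dioxygenase, and CA8, a carbonic anhydrase relative, the nasal tumor lay 5.73 and 5.42 above the highest TCC but was not the highest of the 23, ranking 3 and 2.

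**Figure D3:**
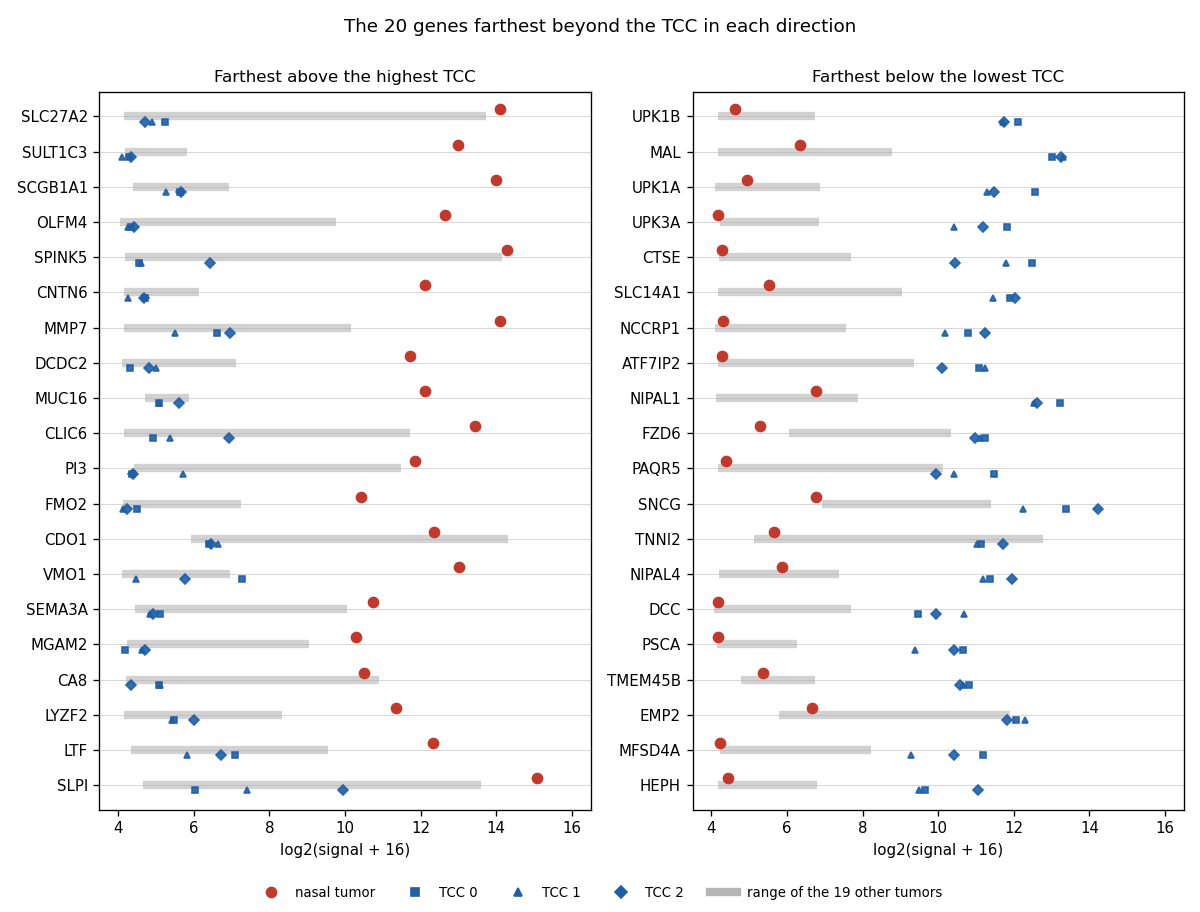
Level, as log2(signal + 16), of the 20 named genes farthest above the highest TCC (left panel) and the 20 farthest below the lowest TCC (right panel): nasal tumor (red circles), each TCC (blue symbols) and the range of the other 19 tumors (grey bars). On the left the nasal tumor mostly stood beyond the grey bars, whereas on the right the TCC mostly did and the nasal tumor lay in or near the bars.

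Urothelial genes were the list with the largest shift. Of 23 on the array, 20 (87%) lay below the lowest TCC and none above, beside 28.5% and 34% of all genes. Of the 23, 14 (60.9%) were called below, against 1.47% of all genes, and the median difference was -2.78. The mean level was 6.10 in the nasal tumor and 9.75, 9.23 and 9.43 in the TCC, while the other 19 tumors lay between 5.51 and 6.26. The nasal tumor therefore stood among non-urothelial tumors on this list.

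The uroplakins, the membrane proteins of the urothelial surface plaque, led the list. UPK1B was at 4.62 in the nasal tumor, against 12.10, 11.72 and 11.75 in the TCC, UPK1A at 4.93 in the nasal tumor, against 12.56, 11.29 and 11.48 in the TCC and UPK3A at 4.18 in the nasal tumor, against 11.82, 10.42 and 11.19 in the TCC. UPK2 followed at 4.85 in the nasal tumor, against 8.83, 8.01 and 7.86 in the TCC, with all 3 of its probesets below the TCC. No tumor outside the TCC passed 6.89 for UPK1A or 6.73 for UPK1B, so for both genes the nasal tumor lay among the other tumor types.

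PSCA, a surface antigen of prostate and bladder, was at 4.17 in the nasal tumor, against 10.65, 9.38 and 10.41 in the TCC, and TMPRSS2, a membrane serine protease, at 4.67 in the nasal tumor, against 10.77, 9.68 and 9.94 in the TCC. SNX31, a sorting nexin of urothelial cells, was at 5.62 in the nasal tumor, against 12.21, 10.45 and 11.13 in the TCC. S100P, a calcium-binding protein of urothelium and placenta, was at 9.64 in the nasal tumor, against 14.68, 14.83 and 13.80 in the TCC. The receptor gene ERBB3 was called at 7.96 in the nasal tumor, against 10.64, 10.35 and 10.28 in the TCC, while ERBB2 lay inside the TCC range at 6.90 in the nasal tumor and 7.89, 6.66 and 7.65 in the TCC, as did FGFR3 at 6.56 in the nasal tumor and 7.49, 6.51 and 6.58 in the TCC.

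Genes outside the urothelial list were also far below the TCC. MAL, a proteolipid of apical membrane traffic, was at 6.35 in the nasal tumor, against 13.02, 13.30 and 13.24 in the TCC. SLC14A1, a urea transporter, was at 5.53 in the nasal tumor, against 11.90, 11.46 and 12.03 in the TCC. CTSE, the aspartic protease cathepsin E, was at 4.27 in the nasal tumor, against 12.48, 11.80 and 10.44 in the TCC. NIPAL1 and NIPAL4, which encode magnesium transporters, lay 5.78 and 5.32 below the lowest TCC.

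FZD6, a Wnt receptor, was at 5.28 in the nasal tumor, against 11.25, 11.09 and 10.98 in the TCC, and SNCG, or gamma-synuclein, at 6.76 in the nasal tumor, against 13.38, 12.26 and 14.22 in the TCC; for both, the nasal tumor was the lowest of all 23. DCC, the netrin receptor, was at 4.17 in the nasal tumor, against 9.47, 10.68 and 9.95 in the TCC. TNNI2, a troponin of fast skeletal muscle, was at 5.66 in the nasal tumor, against 11.13, 11.02 and 11.70 in the TCC. NCCRP1, ATF7IP2, PAQR5, TMEM45B, EMP2, MFSD4A and HEPH completed the 20 farthest, between 5.05 and 5.90 below the lowest TCC.

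Of 28 genes of desmosomes and squamous differentiation, 17 (60.7%) lay below the TCC range and 3 (10.7%) above, beside 28.5% and 34% of all genes. Calls were 4 (14.3%) below and 2 (7.14%) above, beside 1.47% and 1.83% of all genes. LY6D, a surface protein of squamous and bladder epithelium, was at 4.68 in the nasal tumor, against 11.31, 10.88 and 9.70 in the TCC. PPL, or periplakin, a linker of the cell cortex, was at 7.43 in the nasal tumor, against 11.29, 11.67 and 11.69 in the TCC. TP63, the transcription factor of basal epithelial cells, was at 4.29 in the nasal tumor, against 8.21, 8.13 and 6.63 in the TCC, near the floor of the scale.

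The 2 called above were DSG3, a desmoglein, at 8.5 in the nasal tumor, against 5.65, 4.17 and 5.89 in the TCC, and PKP2, a plakophilin of simple epithelia and heart, at 12.02 in the nasal tumor, against 9.05, 7.83 and 9.55 in the TCC. Of 17 keratins none was called, and 9 lay inside the TCC range. KRT7 was at 10.72 in the nasal tumor and 12.44, 11.94 and 13.04 in the TCC, and KRT20, a keratin of umbrella cells, at 4.16 in the nasal tumor and 6.01, 5.11 and 4.73 in the TCC. Of 22 claudins and tight junction proteins 13 (59.1%) lay below and 5 (22.7%) above, beside 28.5% and 34% of all genes. The single call was CLDN8 at 9.06 in the nasal tumor, against 4.16, 4.06 and 4.10 in the TCC, the highest of all 23 tumors.

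Developmental regulators were called in both directions. Of 48 transcription factors of the face and sensory placodes, 15 (31.2%) lay above the TCC range and 14 (29.2%) below. Both shares were near the 34% and 28.5% of all genes. Of the 48, 5 (10.4%) were called above and 1 (2.08%) below, beside 1.83% and 1.47% of all genes. The median difference was -0.21. EYA1, a coactivator in placode development, was at 11.27 in the nasal tumor, against 6.12, 6.24 and 6.58 in the TCC, and its relative EYA4 at 10.28 in the nasal tumor, against 4.12, 5.49 and 4.29 in the TCC. OTX2, a homeodomain factor of the forebrain and anterior head, was at 10.94 in the nasal tumor, against 5.77, 5.57 and 6.17 in the TCC. No other tumor passed 7.15 for OTX2 or 8.55 for EYA1.

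ALX1, a factor of the frontonasal region, was at 10.27 in the nasal tumor, against 5.01, 4.15 and 5.69 in the TCC, but a tumor of another type reached 10.39. PAX6, which acts in the eye and nasal placode, was at 8.35 in the nasal tumor, against 6.12, 5.37 and 5.83 in the TCC, and here too another tumor was higher. SOX2, a factor of airway basal cells and of stem cells, did not reach the call at 7.67 in the nasal tumor, against 5.96, 4.43 and 4.99 in the TCC, and the nasal tumor was the highest of 23. MEIS2 was the member called below, at 6.95 in the nasal tumor, against 9.03, 10.65 and 10.30 in the TCC. DLX5 and MSX2, also factors of facial development, lay 1.74 and 1.55 below the lowest TCC.

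Of 24 urogenital transcription factors, 10 (41.7%) lay below the TCC range and 5 (20.8%) above, beside 28.5% and 34% of all genes. Calls were 3 (12.5%) below and 1 (4.17%) above, beside 1.47% and 1.83% of all genes. GATA3, a factor of urothelium and of T cells, was at 7.31 in the nasal tumor, against 12.75, 12.02 and 12.35 in the TCC. TBX2 was at 4.39 in the nasal tumor, against 7.16, 7.26 and 6.48 in the TCC and NR2F1 at 7.18 in the nasal tumor, against 9.92, 9.40 and 10.22 in the TCC. The 1 called above was ISL1, at 6.86 in the nasal tumor, against 4.35, 4.40 and 4.14 in the TCC, the highest of 23. Of 21 HOX genes, which carry positional identity along the trunk, none was called, and 14 were low in all 4 tumors. Of the 21, 8 (38.1%) lay below and 4 (19%) above, beside 28.5% and 34% of all genes, with a median difference of -0.77. Their mean level was 5.56 in the nasal tumor, and the other 19 tumors had a median of 5.56. HOXA5 had the largest distance below, at 7.68 in the nasal tumor, against 9.84, 9.17 and 9.88 in the TCC.

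Of 29 steroid and nuclear receptors, 4 (13.8%, beside 1.47% of all genes) were called below and none above. ESR1, the estrogen receptor alpha, was at 4.15 in the nasal tumor, against 10.07, 8.95 and 9.91 in the TCC, close to the floor of the scale in the nasal tumor. PPARG, a regulator of urothelial and fat cell differentiation, was at 8.86 in the nasal tumor, against 13.30, 13.07 and 12.95 in the TCC, and RXRA, its dimer partner, at 6.02 in the nasal tumor, against 9.46, 9.12 and 8.35 in the TCC, the lowest of all 23 tumors. NR5A2 was also called, at 4.14 in the nasal tumor, against 7.12, 6.16 and 6.45 in the TCC. PPARA, by contrast, was 0.65 above the highest TCC at 7.74 in the nasal tumor and 7.09, 6.80 and 6.61 in the TCC.

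Among 65 genes of Wnt, Notch, Hedgehog and BMP signalling, calls were mostly below, 9 (13.8%) against 2 (3.08%) above. Over all genes 1.47% were called below and 1.83% above. Of the 65, 21 (32.3%) lay above the TCC range and 20 (30.8%) below, near the 34% and 28.5% of all genes. The median difference was 0.07 and took the other sign under some settings. The 9 included several bone morphogenetic proteins, secreted ligands of the TGF-beta family. BMP3 was at 4.22 in the nasal tumor, against 9.96, 9.5 and 8.89 in the TCC, BMP5 at 4.79 in the nasal tumor, against 9.44, 8.11 and 9.03 in the TCC and BMP2 at 8.28 in the nasal tumor, against 11.60, 12.66 and 11.04 in the TCC. BMP6 and BMP4 lay 2.47 and 2.23 below the lowest TCC.

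Of the antagonists, FRZB was at 7.98 in the nasal tumor, against 12.28, 13.50 and 13.23 in the TCC, and HHIP, which binds Hedgehog ligands, at 5.13 in the nasal tumor, against 8.58, 9.14 and 9.35 in the TCC. DKK1, a Wnt antagonist, was at 4.40 in the nasal tumor, against 7.78, 8.03 and 6.54 in the TCC. The 2 called above were SFRP2, another secreted Wnt modulator, at 10.04 in the nasal tumor, against 5.47, 4.87 and 7.19 in the TCC, and HEY1, a Notch target, at 9.10 in the nasal tumor, against 6.49, 5.82 and 6.28 in the TCC. For HEY1 the nasal tumor was the highest of 23.

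Of 53 genes of ERBB, FGF and growth factor signalling, 22 (41.5%) lay below the TCC range and 12 (22.6%) above. Over all genes these shares were 28.5% and 34%. Calls were 2 (3.77%) below and 1 (1.89%) above, beside 1.47% and 1.83% of all genes. DUSP5, a phosphatase that acts on ERK, was at 4.24 in the nasal tumor, against 8.95, 9.40 and 9.54 in the TCC, the lowest of all 23. ETV4, a target of FGF and ERK signalling, was at 4.35 in the nasal tumor, against 6.47, 6.18 and 7.08 in the TCC, and SPRED2, a feedback inhibitor, at 4.20 in the nasal tumor, against 6.19, 6.16 and 6.21 in the TCC; neither reached the call. MET, the hepatocyte growth factor receptor, was at 6.84 in the nasal tumor, against 8.39, 8.55 and 8.21 in the TCC, and FGFR1 at 10.85 in the nasal tumor, against 9.07, 8.89 and 9.42 in the TCC. IGFBP5 was the 1 called above, at 9.97 in the nasal tumor, against 7.65, 5.47 and 6.47 in the TCC.

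**Figure D4:**
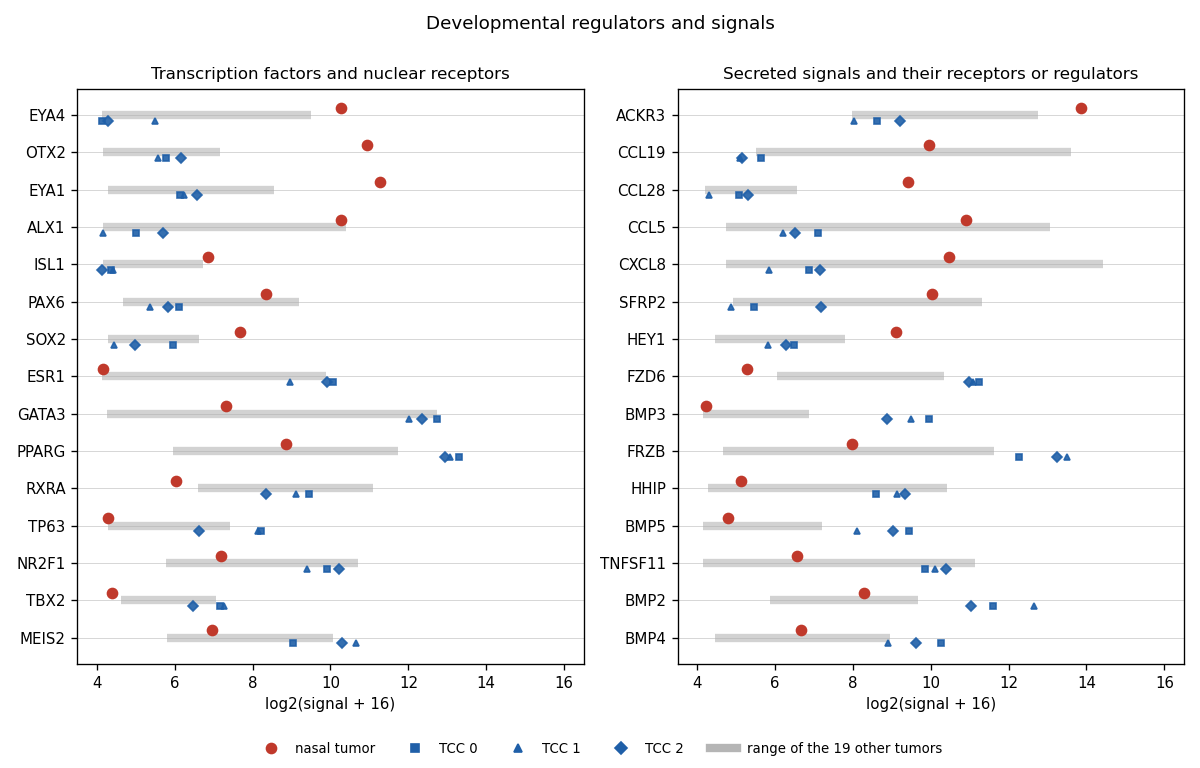
Level, as log2(signal + 16), of transcription factors and nuclear receptors (left panel) and of secreted signals with their receptors or regulators (right panel): nasal tumor (red circles), each TCC (blue symbols) and the range of the other 19 tumors (grey bars). EYA4, OTX2 and EYA1 were higher in the nasal tumor than in any other tumor, while ESR1, GATA3, PPARG and the BMP ligands were lower than in every TCC.

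Enzymes of xenobiotic metabolism, many of them known from olfactory and respiratory mucosa, were called in both directions. Of 30 genes 17 (56.7%) lay above the TCC range and 6 (20%) below, beside 34% and 28.5% of all genes. Of the 30, 7 (23.3%) were called above and 2 (6.67%) below, beside 1.83% and 1.47% of all genes. The median difference was 0.45. FMO2, the flavin monooxygenase of lung, was at 10.41 in the nasal tumor, against 4.51, 4.13 and 4.23 in the TCC. GPX2, a glutathione peroxidase of epithelia, was at 12.67 in the nasal tumor, against 7.67, 8.90 and 6.31 in the TCC. CYP3A26, a canine cytochrome P450, was at 9.22 in the nasal tumor, against 4.12, 5.29 and 5.65 in the TCC, with a higher level in 1 other tumor.

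The 2 called below were ALDH1A1, an aldehyde dehydrogenase that makes retinoic acid, at 8.74 in the nasal tumor, against 13.97, 13.47 and 13.43 in the TCC, and NQO1, a quinone reductase, at 6.26 in the nasal tumor, against 12.18, 10.88 and 10.66 in the TCC. UGT1A6, a glucuronosyltransferase, varied among the TCC themselves, at 4.33 in the nasal tumor and 11.16, 5.16 and 4.89 in the TCC. The nasal tumor was the lowest of all 23 for it.

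Of 39 ion and water transport genes, 14 (35.9%) lay above the TCC range and 12 (30.8%) below, near the 34% and 28.5% of all genes. Calls were 2 (5.13%) above and 5 (12.8%) below, beside 1.83% and 1.47% of all genes. SCNN1A, the alpha subunit of the epithelial sodium channel, was at 10.65 in the nasal tumor, against 7.36, 7.22 and 6.74 in the TCC, whereas SCNN1G, the gamma subunit, was at 4.17 in the nasal tumor, against 7.10, 7.80 and 6.48 in the TCC. AQP5, given above with the gland genes, was the other call on the high side. FXYD3, a regulator of the sodium pump, was at 7.81 in the nasal tumor, against 12.06, 11.99 and 11.84 in the TCC, SLC4A4, a bicarbonate cotransporter, at 5.09 in the nasal tumor, against 10.58, 8.33 and 8.13 in the TCC, and ANO1, a calcium-activated chloride channel, at 5.32 in the nasal tumor, against 8.10, 7.68 and 8.18 in the TCC.

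CFTR, the chloride channel of airway and gland epithelium, was 1.04 above the highest TCC at 8.30 in the nasal tumor and 6.91, 5.42 and 7.26 in the TCC. SLC12A2, the cotransporter that loads secretory cells with chloride, was at 12.08 in the nasal tumor, against 9.90, 8.90 and 10.55 in the TCC. The median difference of the ion and water transport list was close to 0 and changed sign under some settings.

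Proteases and their inhibitors were among the genes with large distances in either direction. Of 23 matrix metalloproteinases and inhibitors, 10 (43.5%) lay above the TCC range and 5 (21.7%) below, beside 34% and 28.5% of all genes. MMP7 alone was called. MMP13, a collagenase, was at 10.06 in the nasal tumor, against 5.71, 6.09 and 8.16 in the TCC, the highest of 23. Of 36 serpins and protease inhibitors, 4 (11.1%, beside 1.83% of all genes) were called above: SPINK5, PI3, the marker SLPI and WFDC2. WFDC2, a secreted whey acidic protein of airway and genital epithelium, stood at 11.07 in the nasal tumor, against 8.29, 4.83 and 6.89 in the TCC. SERPINB7 was the 1 called below, at 7.32 in the nasal tumor, against 11.40, 11.13 and 11.77 in the TCC.

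Of 37 kallikreins, cathepsins and membrane serine proteases 5 (13.5%) were called below, beside 1.47% of all genes. These were CTSE and TMPRSS2, given above, with TMPRSS4, CTSD and PRSS35. TMPRSS4 was at 5.47 in the nasal tumor, against 10.62, 10.60 and 10.15 in the TCC, and CTSD, a lysosomal aspartic protease, at 10.49 in the nasal tumor, against 14.19, 14.03 and 13.93 in the TCC. The 1 called above was HPN, or hepsin, at the edge of the call. Of 27 S100 proteins and annexins, 15 (55.6%) lay below and 3 (11.1%) above, beside 28.5% and 34% of all genes. S100P and ANXA3 (7.41%, beside 1.47% of all genes) were called below. ANXA3 was at 7.96 in the nasal tumor, against 11.02, 11.54 and 11.10 in the TCC.

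Leukocyte lists differed in their share above the TCC range, which was 34% over all genes. Of 31 T and NK cell genes, 22 (71%) lay above the TCC range and 5 below, with a median difference of 0.92. Calls were 2 (6.45%) above and 1 (3.23%) below, beside 1.83% and 1.47% of all genes. However, 21 of the 31 were low in all 4 tumors. Their mean level was 6.57 in the nasal tumor and 5.84, 5.61 and 5.74 in the TCC, but the nasal tumor ranked 15 of 23, and the other 19 tumors had a median of 7.05. CD3D, a chain of the T cell receptor complex, was at 8.95 in the nasal tumor, against 5.56, 5.13 and 6.34 in the TCC, and CD3G at 9.68 in the nasal tumor, against 7.20, 7.20 and 5.96 in the TCC. GATA3 was the 1 called below.

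Of 21 B and plasma cell genes, 11 (52.4%) lay above the TCC range, 1 below and 9 inside, and 12 were low in all 4 tumors. MS4A1, the B cell antigen CD20, was at 7.15 in the nasal tumor, against 4.32, 4.15 and 4.24 in the TCC. JCHAIN, the joining chain of IgA and IgM, was at 10.44 in the nasal tumor, against 6.86, 8.24 and 6.80 in the TCC, and the nasal tumor was the highest of 23. Of 31 macrophage and dendritic cell genes, 12 (38.7%) lay above, a share near that of all genes, and 4 below. AIF1 was at 13.35 in the nasal tumor, against 9.95, 8.99 and 8.87 in the TCC and MARCO, a scavenger receptor, at 9.39 in the nasal tumor, against 5.25, 5.56 and 5.14 in the TCC.

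Of 20 neutrophil and mast cell genes, 8 (40%) lay above the TCC range and 6 (30%) below, also near the shares of all genes. LTF, which neutrophil granules also hold, was called above (5%), and 2 (10%) were called below. Over all genes 1.83% were called above and 1.47% below. CPA3, the mast cell carboxypeptidase, was at 4.10 in the nasal tumor, against 6.98, 6.74 and 6.59 in the TCC, and IL1RL1, the receptor of IL33, at 4.34 in the nasal tumor, against 11.62, 9.02 and 8.84 in the TCC. IL33 itself was higher, at 11.07 in the nasal tumor, against 7.83, 6.53 and 7.56 in the TCC. KIT, a receptor of mast cells and melanocytes, did not share the direction of CPA3 and was at 8.98 in the nasal tumor, against 6.81, 6.99 and 6.49 in the TCC.

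Of 62 chemokines, cytokines and receptors, 36 (58.1%) lay above the TCC range and 13 below, and the median difference was 0.79. Of the 62, 11 (17.7%) were called above and 2 (3.23%) below, beside 1.83% and 1.47% of all genes. ACKR3, a scavenging receptor of CXCL12, was at 13.85 in the nasal tumor, against 8.63, 8.03 and 9.21 in the TCC, the highest of 23. CCL19, which guides T cells and dendritic cells, was at 9.96 in the nasal tumor, against 5.65, 5.10 and 5.15 in the TCC, and CCL5 at 10.89 in the nasal tumor, against 7.09, 6.20 and 6.52 in the TCC. CXCL8, the neutrophil chemokine, was at 10.46 in the nasal tumor, against 6.87, 5.85 and 7.16 in the TCC. For these last 3, tumors of other types had higher levels. TNFSF11, the osteoclast factor RANKL, was at 6.57 in the nasal tumor, against 9.86, 10.12 and 10.40 in the TCC.

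Of 32 interferon response genes, 13 (40.6%) lay above the TCC range, beside 34% of all genes, and 6 lay below. Of the 32, 4 (12.5%) were called above, beside 1.83% of all genes, and none below. CXCL10, an interferon-induced chemokine, was at 10.65 in the nasal tumor, against 5.04, 7.23 and 5.15 in the TCC, and GBP1 at 9.25 in the nasal tumor, against 6.30, 6.24 and 5.91 in the TCC, whereas RSAD2, also interferon-induced, was at 7.25 in the nasal tumor, against 8.66, 8.87 and 9.40 in the TCC. For CXCL10 the nasal tumor ranked 6 of 23 and for GBP1 13 of 23. Of 22 antigen presentation genes 11 lay inside the TCC range. The class I gene DLA88 was at 11.50 in the nasal tumor, against 8.31, 7.37 and 7.05 in the TCC, with 1 of its 2 probesets above the TCC, and the class II invariant chain CD74 at 12.73 in the nasal tumor, against 14.85, 13.67 and 13.48 in the TCC.

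Over all genes, 28.5% lay below the TCC range, or 35.8% with each array centred on its median gene. Of 29 endothelial genes, 18 (62.1%) lay below and 3 above, none was called, and the median difference was -0.75. PECAM1, an endothelial adhesion molecule, was at 9.48 in the nasal tumor, against 11.65, 11.05 and 11.24 in the TCC, and VWF, or von Willebrand factor, at 9.38 in the nasal tumor, against 11.07, 11.51 and 11.47 in the TCC. Their mean level was 7.08 in the nasal tumor and 7.84, 7.33 and 7.72 in the TCC. VCAM1, an adhesion molecule that inflammation induces, was an exception at 13.82 in the nasal tumor, against 12.39, 9.85 and 10.70 in the TCC.

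Of 40 matrix and fibroblast genes, 19 (47.5%) lay below the TCC range and 6 (15%) above. Calls were 2 (5%) below and 3 (7.5%) above, beside 1.47% and 1.83% of all genes. TNC, or tenascin C, was at 5.07 in the nasal tumor, against 9.10, 8.54 and 10.98 in the TCC, and PDGFRA, a receptor of mesenchymal cells, at 8.66 in the nasal tumor, against 12.62, 12.31 and 11.67 in the TCC. LOX, the collagen crosslinking enzyme, was at 11.16 in the nasal tumor, against 6.39, 6.54 and 7.33 in the TCC, and its relative LOXL2 at 10.48 in the nasal tumor, against 7.74, 7.76 and 8.42 in the TCC. For LOX and LOXL2 the nasal tumor was the highest of all 23.

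Of 36 genes of the basement membrane, laminins and integrins, 21 (58.3%) lay below and 9 (25%) above. The 3 called below (8.33%, beside 1.47% of all genes) were integrins, and none was called above. ITGA3, the alpha chain of a laminin receptor, was at 4.42 in the nasal tumor, against 8.83, 8.20 and 8.80 in the TCC. ITGA6, which pairs with ITGB4 in hemidesmosomes, was at 6.55 in the nasal tumor, against 9.52, 12.38 and 9.34 in the TCC, the lowest of 23, and ITGB4 was 1.46 below the lowest TCC. ITGB3 was at 6.54 in the nasal tumor, against 9.04, 9.48 and 10.16 in the TCC. Of 33 muscle genes 13 (39.4%) lay below and 8 above, and MYH11, the smooth muscle myosin, was at 6.35 in the nasal tumor, against 8.46, 7.92 and 10.76 in the TCC. What part the differing levels of leukocyte, endothelial and stromal genes had in the other differences was not tested.

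Of 43 proliferation genes, 27 (62.8%) lay above the TCC range, beside 34% of all genes, and 6 below, with a median difference of 0.57, and none reached the call. MYBL2, a cell cycle transcription factor, was at 9.44 in the nasal tumor, against 7.78, 7.47 and 8.05 in the TCC, and CCNB2, a mitotic cyclin, at 9.89 in the nasal tumor, against 8.95, 8.23 and 8.93 in the TCC. TYMS, thymidylate synthase, was below at 10.18 in the nasal tumor, against 10.76, 10.59 and 10.68 in the TCC. The 51 ribosomal protein genes gave a median difference of 0.09, near that of all genes and of the other sign with each array centred on its median gene, and no call.

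Of 36 hypoxia and glycolysis genes 15 (41.7%) lay above the TCC range and 13 (36.1%) below, beside 34% and 28.5% of all genes. EPAS1, the hypoxia-inducible factor 2 alpha, was at 11.90 in the nasal tumor, against 9.87, 10.14 and 9.62 in the TCC, the highest of 23. PDK1, a kinase that inhibits pyruvate dehydrogenase, was called below at 7.97 in the nasal tumor, against 10.12, 12.93 and 10.41 in the TCC, as was BNIP3L at 9.58 in the nasal tumor, against 11.79, 11.73 and 11.89 in the TCC. For both, the nasal tumor was the lowest of all 23.

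Nonsteroidal anti-inflammatory drugs act on the cyclooxygenases of the prostaglandin pathway, and only for the TCC cohort do the methods exclude their earlier use. Of 32 genes of this pathway 16 (50%) lay above the TCC range and 7 (21.9%) below, beside 34% and 28.5% of all genes. PTGS2, the inducible cyclooxygenase, lay inside the TCC range at 11.41 in the nasal tumor and 11.45, 9.06 and 12.56 in the TCC. PTGS1, the constitutive form, was at 7.93 in the nasal tumor, against 10.99, 8.93 and 11.04 in the TCC. HPGD, the enzyme that inactivates prostaglandins, was at 4.29 in the nasal tumor, against 9.10, 11.10 and 8.20 in the TCC, and PTGFR, a prostaglandin receptor, at 8.68 in the nasal tumor, against 5.26, 4.34 and 4.29 in the TCC.

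Of 43 drug target and biomarker genes that the study drew on, 17 (39.5%) lay below the TCC range and 13 (30.2%) above. Over all genes these shares were 28.5% and 34%. Calls were 3 (6.98%) below, which were ESR1, PDGFRA and ITGB3, and 1 (2.33%) above, beside 1.47% and 1.83% of all genes. The study's rules came from public drug databases, but many of the genes counted here were taken from its predictions for these dogs, so their direction is no independent evidence. The 1 called above was IL1R1, the interleukin 1 receptor, at 10.997 in the nasal tumor, against 7.96, 6.42 and 7.85 in the TCC. IL2RA was at 8.20 in the nasal tumor, against 4.42, 6.34 and 6.37 in the TCC.

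**Figure D5:**
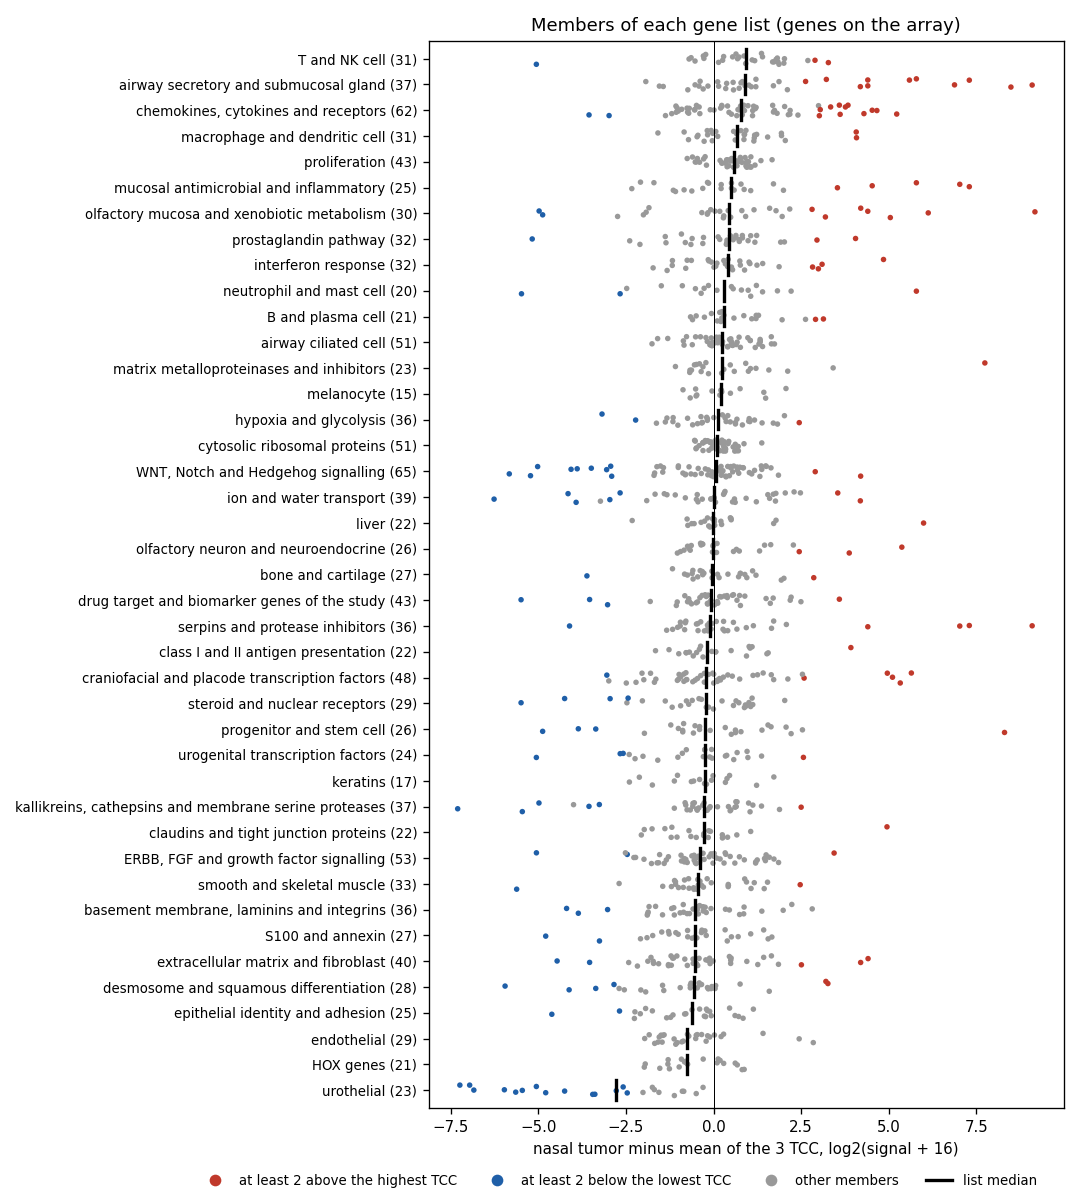
Difference between the nasal tumor and the mean of the 3 TCC, in log2(signal + 16), for each member of 41 gene lists, ordered by list median (black bars), with the number of genes on the array in parentheses. Red points are members at least 2 log2 units above the highest TCC and blue points those at least 2 below the lowest TCC. Urothelial genes had the lowest median (-2.78), while T and NK cell genes (0.92) and airway secretory genes (0.90) had the highest.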

How the data were processed

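Each tumor was hybridised to 1 Affymetrix Canine Genome array. The deposited values are MAS5 intensity, 1 linear signal per probeset, which the authors scaled per array to a trimmed mean of 500.1. The cDNA had been amplified before labelling. Precision is limited by the number of arrays.

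Of 42924 probesets that are not controls, 29254 had 1 gene symbol in the platform annotation, 439 had several and 13231 had none there. Symbols were used as annotated. The mean of log2(signal + 16) over the probesets of a symbol gave 15115 genes, 6861 of them with 1 probeset. Detection calls were not used. Python 3.11.15, pandas 2.3.3 and numpy 2.4.6 were used, and the counting was tested on simulated data.

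The nasal tumor was set against the lowest and highest of the 3 TCC, and a gene was called at a distance of at least 2 log2 units. With 1 nasal tumor no test was made. The members, the gene lists and the rule for named genes were chosen with earlier results of these data known. Named genes are the 20 farthest beyond the TCC in each direction without locus-number symbols, up to 5 members of each list per direction, MMP7, SLPI and OLFM4, and members inside the TCC range. EPCAM, IBSP, CLCA2, DMBT1, BPIFA1, UPK2, SNX31, BMP2, BMP4, BMP6, DKK1, MET, CFTR, IL33 and ITGB4 were chosen after their values were seen. Alternatives were pseudocounts of 1 and 64, quantile normalization, centring on the median gene, a filter on low genes, other summaries of probesets, distances of 1 and 3, and leaving out each TCC.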

Additional observations from a re-analysis of the deposited data

Results flagged for a closer look

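Probesets with no single gene symbol in the annotation carried signal outside the gene-level comparison. Of 13670 such probesets, 267 were at least 2 log2 units higher in the nasal tumor than in the highest TCC and 180 at least 2 lower than in the lowest TCC. These are 1.95% and 1.32%, beside 1.8% and 1.62% (526 and 475 of 29254) for probesets with 1 symbol. The largest distances among unnamed probesets were 8.11 above and -9.15 below. No sample was examined as an outlier within its group, because the nasal type has 1 tumor and TCC 3.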

How the results depend on the processing

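The balance of genes above against genes below the TCC turned with the scaling. With a pseudocount of 1, 524 genes were called above the TCC and 498 below, and these include all 277 and 222 called with 16; with a pseudocount of 64 the calls were 153 and 124. Distances of 1 and 3 log2 units gave 1090 and 100 genes above and 855 and 96 below. With low genes left out, 8940 genes remained, of which 3299 lay above and 2803 below the TCC range, fewer because fewer genes were counted. Leaving out each TCC gave 5889 to 6224 genes above and 4999 to 5633 below the range of the other two, and 345 to 390 and 264 to 329 calls, more because a range over fewer tumors is narrower. Centring each array on its median gene moved the median difference over all genes from 0.05 to -0.08 and the share of genes above, among those beyond the range, from 54.4% to 43.8%; with quantile normalization it was 49.7%. Calls were 240 above and 253 below with centring, and 250 and 243 with quantile normalization. Under the alternatives not named here each count stayed within 1.5 times. Of 420 list medians under the alternatives, 19 moved by more than the TCC spread, among them the urothelial list (-2.19 to -3.89), airway secretory genes (3.22 with low genes left out) and T and NK cell genes (1.92 with low genes left out).

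No paired analysis was possible because the nasal type has 1 tumor whose label carries no replicate number.

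With 1 tumor, the spread among nasal tumors is unknown. Signals near the floor of the scale have little order, and distances that end there understate the change in signal. Organ, breed, biopsy route and individual dog cannot be told apart.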

Other observations

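Several called genes belonged to none of the groups described above and were chosen after their values were seen. On the high side, FBN2, the microfibril protein fibrillin 2, was at 10.50 in the nasal tumor, against 4.92, 5.39 and 4.60 in the TCC, and ADAMTS20, a secreted metalloproteinase, at 10.71 in the nasal tumor, against 5.27, 5.17 and 5.67 in the TCC. SLC1A3, a glutamate transporter best known from glia, was at 14.32 in the nasal tumor, against 9.18, 6.68 and 9.31 in the TCC. GPC4, a glypican that binds growth factors, was at 12.02 in the nasal tumor, against 7.82, 6.90 and 7.32 in the TCC, and CCND1, the G1 cyclin D1, at 11.63 in the nasal tumor, against 7.85, 7.76 and 7.33 in the TCC. For these 5 genes the nasal tumor was the highest of all 23. The metallothioneins MT1E and MT2A, which bind zinc and copper, were at 12.42 in the nasal tumor, against 8.02, 8.27 and 8.81 in the TCC and at 14.59 in the nasal tumor, against 8.52, 11.32 and 10.09 in the TCC, with higher levels in tumors of other types.

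On the low side, FABP3, a fatty acid binding protein, was at 7.54 in the nasal tumor, against 12.90, 12.58 and 12.96 in the TCC, PPARGC1A, a coactivator of mitochondrial genes, at 4.76 in the nasal tumor, against 9.67, 8.89 and 8.68 in the TCC, and ME1, the cytosolic malic enzyme, at 7.12 in the nasal tumor, against 11.30, 11.78 and 10.58 in the TCC. PIR, or pirin, was at 6.45 in the nasal tumor, against 12.83, 13.35 and 11.25 in the TCC. ABCB1, the drug exporter P-glycoprotein, was at 6.41 in the nasal tumor, against 11.22, 9.96 and 10.01 in the TCC, and ABCC5, another export pump, at 6.30 in the nasal tumor, against 11.42, 11.39 and 10.16 in the TCC. For none of these 6 was the nasal tumor the lowest of all 23.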
